A study of Mus musculus with 12 samples.

Results

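The genes studied here encode subunits of eukaryotic translation initiation factor 3 (eIF3). They were the 10 rows of a deposited mouse RNA-seq table whose gene symbol was Eif3a, Eif3b, Eif3c, Eif3d, Eif3e, Eif3f, Eif3g, Eif3h, Eif3i or Eif3k, out of 19716 rows in all. The 10 genes are listed by name, and the list was drawn up with earlier results of these data known. The RNA came from mouse embryonic stem cells (ESC) grown on gelatin with leukemia inhibitory factor, at passages 8 to 15. All groups carried a transgene for HA-Flag-AGO2 that doxycycline (dox) switches on, and AGO2 is an Argonaute protein that carries microRNAs. RNA of isolated nuclei and total RNA of lysed whole cells was taken from dox-treated and untreated cells, which makes 4 groups. Treated cells received 2.5 ug/ml dox over the 15 h up to harvest. Directional libraries were made after removal of ribosomal RNA. The promoter of the transgene and the number of ESC clones were not given in the sources used here.

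eIF3 is the largest initiation factor. It binds the small ribosomal subunit, helps to load the initiator tRNA and the mRNA, and keeps the large subunit from joining too early. In mammals one part of eIF3 is a ring of subunits that share PCI or MPN folds with the proteasome lid and the COP9 signalosome, and another part holds the RNA-binding and beta-propeller subunits. Mouse embryos that lack both copies of a subunit gene such as Eif3c or Eif3m die early in development.

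The labels listed 12 libraries, and the deposited means were read as resting on 10 of them. From the ANOVA p-values and the steps of low values these were inferred to be 3 and 2 for nuclear RNA with and without dox, and 2 and 3 for total RNA with and without dox. Depth, read from the smallest steps of low values, was 10.34 to 11.79 M reads in the dox libraries and 15.29 to 18.9 M without dox, so each of the dox libraries read here was shallower than each of the others. ESC markers were present. All 10 listed ones, Pou5f1 and Nanog among them, reached 1 RPKM (reads per kilobase of gene and per M reads) in all 4 columns. Their sums were 2540 and 912 RPKM in nuclear RNA with and without dox and 4240 and 1830 RPKM in total RNA. Most of each sum was Dppa5a, with 1800 and 617 RPKM in nuclear and 3390 and 1390 RPKM in total RNA. At a limma adjusted p below 0.05, 6 of the 10 were higher and 1 lower in nuclear RNA, against 43.1% and 26.3% of all tested genes. In total RNA 7 were higher and 2 lower, against 41.5% and 22.8%. Of 10 fibroblast markers 6 were in the table and only Fn1, which ESC also express, reached 1 RPKM. The sum of the fibroblast list was 24.1 and 53.4 RPKM in nuclear RNA with and without dox and 27.5 and 64.6 RPKM in total RNA, nearly all of it Fn1, and its part in the results below was not tested. Ago2, the induced gene, went against the dox label, with 2.39 RPKM in the dox-labelled and 8.65 RPKM in the no-dox nuclear column, and 3.43 against 9.12 RPKM in total RNA. It was 3.61-fold lower in nuclear RNA (log2 -1.85, SE 0.166, limma adjusted p = 4.94e-07) and 2.66-fold lower in total RNA (log2 -1.41, SE 0.166, limma adjusted p = 7.91e-06). All directions below therefore hold for the columns as labelled dox and no dox. No label says that the libraries came from separate cultures, so p-values measure only the spread between these libraries. In bulk RNA, fewer cells of a type and less RNA per cell cannot be told apart.

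RefSeq promoters (GRCm38.p6 build) were at hand for 7 of the 10 genes, all but Eif3e, Eif3h and Eif3i. The 100 bases just before the RefSeq start are shown for all 7, because 6 (Eif3b, Eif3c, Eif3d, Eif3f, Eif3g and Eif3k) rose together in the dox-labelled columns and Eif3a fell. Each reads 5′ to 3′ on the gene's strand, and capitals mark matches on either strand to the motifs searched, which were ETS (CCGGAA), YY1 (AAGATGGC), E-box (CACGTG), the TATA box (TATAAA), the box of NF-Y (CCAAT) and the NRF1 palindrome. The intervals are chr19:60790694-60790793 (minus) for Eif3a, chr5:140419205-140419304 (plus) for Eif3b, chr7:126566367-126566466 (minus) for Eif3c, chr15:77970825-77970924 (minus) for Eif3d, chr7:108934315-108934414 (plus) for Eif3f, chr9:20898591-20898690 (minus) for Eif3g and chr7:28981889-28981988 (minus) for Eif3k.
Eif3a: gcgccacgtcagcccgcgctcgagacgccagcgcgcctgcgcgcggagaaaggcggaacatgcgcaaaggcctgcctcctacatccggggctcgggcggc
Eif3b: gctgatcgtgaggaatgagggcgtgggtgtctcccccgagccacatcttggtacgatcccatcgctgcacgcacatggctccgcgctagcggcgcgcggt
Eif3c: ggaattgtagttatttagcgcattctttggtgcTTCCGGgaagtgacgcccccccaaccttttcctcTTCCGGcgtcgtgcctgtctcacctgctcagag
Eif3d: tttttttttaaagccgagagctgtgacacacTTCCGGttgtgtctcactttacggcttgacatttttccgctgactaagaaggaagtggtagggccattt
Eif3f: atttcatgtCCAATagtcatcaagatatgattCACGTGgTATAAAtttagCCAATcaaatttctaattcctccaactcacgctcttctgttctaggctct
Eif3g: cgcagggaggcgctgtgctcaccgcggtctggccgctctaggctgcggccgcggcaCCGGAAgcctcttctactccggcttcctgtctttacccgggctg
Eif3k: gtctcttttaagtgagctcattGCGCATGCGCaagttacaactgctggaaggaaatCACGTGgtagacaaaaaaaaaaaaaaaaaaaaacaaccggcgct
Over the whole window of 250 bases before to 50 after the start, ETS letters stood in 4 of the 7 promoters (Eif3c, Eif3d, Eif3f and Eif3g) and in 14.9% of 32851 RefSeq promoters. The E-box stood in 3 (Eif3a, Eif3f and Eif3k; 7.15% of all), TATA letters in 2 (Eif3b and Eif3f; 13.6% of all) and CCAAT in 2 (Eif3f and Eif3k; 37.4% of all). The NRF1 palindrome was found only in Eif3k (0.971% of all), and YY1 letters only in Eif3f (2.75% of all). A C at the start followed by at least 4 pyrimidines, the form of start that many ribosomal protein genes have, was found only in Eif3f (2.51% of all). No motif was common to the 7, and no match overlapped another. Eif3a, the gene that fell, shared the E-box with 2 genes that rose, but its match begins at base 23 after the start, outside the stretch shown. These matches describe letters only.

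Comparing dox with no dox was designed to ask which RNAs differ once HA-Flag-AGO2 has been induced, but since Ago2 went against the label the values below compare the labelled columns only. In nuclear RNA 9 of the 10 eIF3 genes were higher in the dox-labelled column and Eif3a was lower, although after quantile normalization Eif3e turned to log2 -0.09 and Eif3c was no longer called, and with length and GC trends removed Eif3a turned to 0.08. Eif3i (6.56-fold), Eif3f (6.07-fold) and Eif3k (5.90-fold) rose most. The median log2 fold change of the 10 genes was 2.14, against 0.28 over all 10197 genes tested, and it was 1.02 after quantile normalization, against 0.09 over all. In that setting 34.8% of all tested genes were called higher. The 7 nuclear rises of members still called there ran from log2 0.53 for Eif3b and 0.84 for Eif3d to 1.79 for Eif3i, and Eif3a was at -1.92. Of all tested genes 43.1% were called higher and 26.3% lower, so 9 of 10 higher was above that share and 1 of 10 lower was below it. The 10 members were all above 5 RPKM in every column. Among the 4895 genes of at least 5 RPKM in any column, 65.2% were called higher and 18.4% lower, with a median of 0.79. Genes of this set were thus called higher more often than all tested genes. A gene could enter it through a dox column alone, so the filter itself favors rises. Unlike the members, its genes need not be above 5 RPKM in every column. Calls were made where limma's p, adjusted over all tested genes by the Benjamini-Hochberg method, was below 0.05, and all 10 members passed the filter of 1 RPKM in at least 1 column. Levels below are the authors' deposited group means taken back from the log2 scale, for which the table gives no spread by library.

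**Figure D1:**
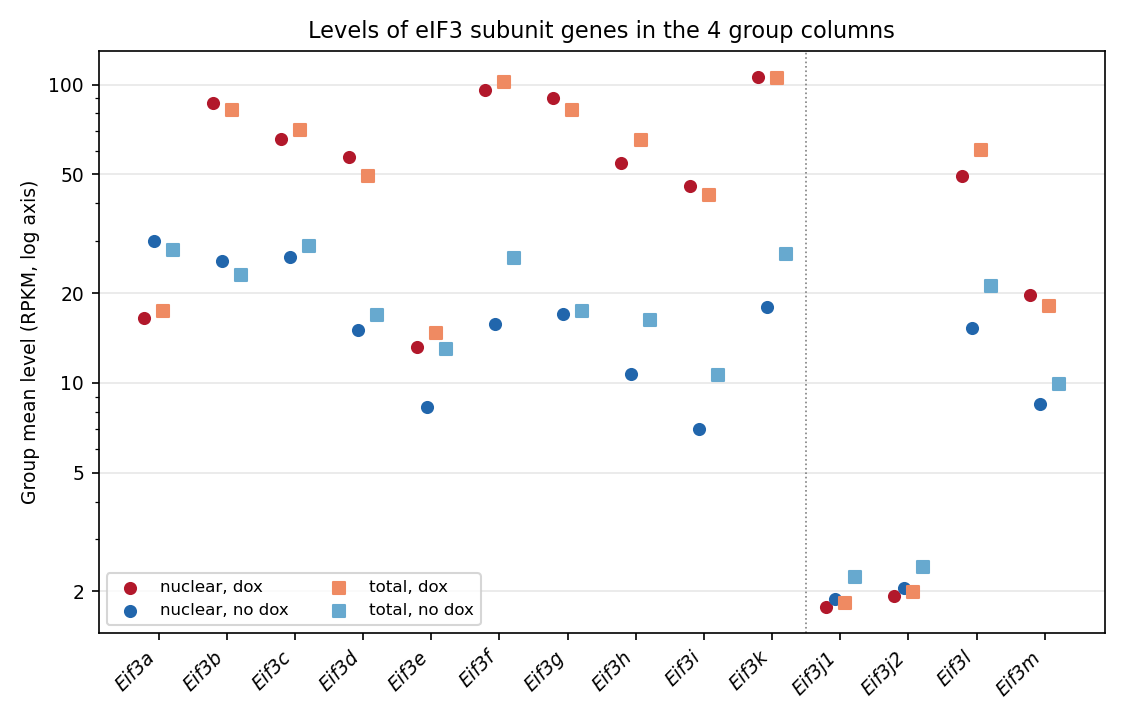
Deposited group means in RPKM (log axis) of the 10 eIF3 genes and, right of the dotted line, of the 4 other eIF3 genes, with circles for nuclear and squares for total RNA. As deposited, both dox-labelled columns lie above both no-dox columns for every member but Eif3a, where they lie below; for Eif3e the total columns differ little (14.7 and 13.0 RPKM).

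Among the RNA-binding and beta-propeller subunits, Eif3b, Eif3g and Eif3i were all higher with dox. Eif3b, which holds an RNA recognition motif and a beta-propeller that sits on the small ribosomal subunit, had 86.7 RPKM in nuclear RNA with dox, 25.5 without, 81.9 in total RNA with dox and 23.1 without. The nuclear rise of Eif3b was 3.40-fold (log2 1.76, 95% interval 1.55 to 1.97, limma adjusted p = 6.83e-09). The dox columns of this gene were close to each other and both were far above the no-dox columns. Eif3g, a subunit with an RNA recognition motif, had 90.1, 17.0, 82.2 and 17.4 RPKM in the same order of columns. Its nuclear rise was 5.31-fold (log2 2.41, 95% interval 2.12 to 2.70, limma adjusted p = 8.11e-09). On the deposited scale Eif3g was not called between fractions, but it was called higher in nuclear than in total RNA with dox after centring of the columns (log2 0.50, limma adjusted p = 0.0148) and without dox after quantile normalization (log2 0.45, adjusted p = 0.0227). Eif3i, a WD-repeat protein that binds Eif3b, had 45.8, 6.99, 42.5 and 10.7 RPKM. Its rise in nuclear RNA was 6.56-fold (log2 2.71, 95% interval 2.40 to 3.02, limma adjusted p = 4.96e-09). Eif3i had the lowest level of the 10 genes in both no-dox columns. This level was estimated as about 122 reads in the shallower nuclear library, where counting alone would give an error of 9.05%. The estimate takes transcript length as gene length, and the length behind the deposited RPKM may differ.

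The largest PCI subunits moved in opposite directions. Eif3a, the scaffold that reaches along the mRNA channel and links the ring to Eif3b, had 16.6 RPKM in nuclear RNA with dox, 30.0 without, 17.5 in total RNA with dox and 27.8 without. It was 1.81-fold lower in nuclear RNA (log2 -0.86, 95% interval -1.12 to -0.60, limma adjusted p = 2.99e-05) and 1.59-fold lower in total RNA (log2 -0.67, 95% interval -0.93 to -0.41, adjusted p = 0.000284). The call of Eif3a ended when a trend on exon length was removed from all genes (log2 -0.23, limma adjusted p = 0.108, in nuclear RNA and log2 -0.19, adjusted p = 0.188, in total RNA), and with a GC trend removed too its value was 0.08 in both. Eif3c, which binds Eif3a and contacts the start-codon factors eIF1 and eIF5, had 65.7, 26.4, 70.2 and 28.8 RPKM. Its nuclear rise was 2.49-fold (log2 1.31, 95% interval 1.05 to 1.57, limma adjusted p = 6.47e-07), and after quantile normalization it was log2 0.09 (adjusted p = 0.525). Eif3a and Eif3c were within 1.13-fold of each other without dox in nuclear RNA and 3.97-fold apart with dox.

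The other members of the ring were higher with dox in nuclear RNA, Eif3e less than the rest as deposited. Eif3f and Eif3h are its MPN subunits. Eif3f had 95.8, 15.8, 102 and 26.2 RPKM, a nuclear rise of 6.07-fold (log2 2.60, 95% interval 2.38 to 2.83, limma adjusted p = 6.23e-10). Eif3h had 54.7, 10.7, 65.2 and 16.3 RPKM, a nuclear rise of 5.10-fold (log2 2.35, 95% interval 2.08 to 2.62, limma adjusted p = 5.06e-09). In both genes the 2 dox columns were far above the 2 no-dox columns, and the nuclear no-dox column was the lowest. Eif3k, the smallest subunit, had 106, 17.9, 105 and 27.0 RPKM and was the highest of the 10 genes in both dox columns. Its nuclear rise was 5.90-fold (log2 2.56, 95% interval 2.30 to 2.82, limma adjusted p = 2.20e-09). Eif3e, the PCI subunit also known as Int6 from a site where mouse mammary tumor virus integrates, had 13.2, 8.31, 14.7 and 13.0 RPKM. It rose 1.59-fold in nuclear RNA (log2 0.67, 95% interval 0.35 to 0.99, limma adjusted p = 0.00118), but its value was log2 -0.09 after quantile normalization and 0.18 (adjusted p = 0.288) with a trend on transcript length removed. In the other direction, Eif3e was at log2 1.10 (limma adjusted p = 2.27e-05) with the exon length trend removed and at 2.07 (adjusted p = 9.27e-08) with exon length and GC trends removed, above Eif3h (1.84) and Eif3k (1.96) in that setting. Eif3e had the lowest level of the 10 genes in both dox columns.

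Eif3d, which in human cells can bind the cap of selected mRNAs, stands outside the ring. It had 57.1, 15.1, 49.3 and 16.9 RPKM, a nuclear rise of 3.79-fold (log2 1.92, 95% interval 1.63 to 2.22, limma adjusted p = 6.37e-08). Its level with dox was above its level without dox in both fractions.

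In total RNA the same comparison called 8 of the 10 genes higher and 1 lower, against 41.5% higher and 22.8% lower over all tested genes. Among genes of at least 5 RPKM the shares were 63.2% higher and 17.9% lower. Eif3e was the gene not called (1.13-fold higher, log2 0.18, 95% interval -0.14 to 0.50, limma adjusted p = 0.298), and after quantile normalization it was called lower (log2 -0.49, adjusted p = 0.0107). With the exon length trend removed it was called higher (log2 0.49, limma adjusted p = 0.0113). In the authors' deposited table the ratio of Eif3e in total RNA was 1.13, with an ANOVA p-value of 0.301. The median of the 10 genes was 1.90 on the log2 scale, against 0.26 over all genes, and 1.02 after quantile normalization, against 0.11 over all. Eif3g (4.73-fold), Eif3h (4.0-fold), Eif3i (3.99-fold), Eif3f (3.91-fold) and Eif3k (3.90-fold) rose most, and Eif3b (3.55-fold), Eif3d (2.92-fold) and Eif3c (2.43-fold) rose less.

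**Figure D2:**
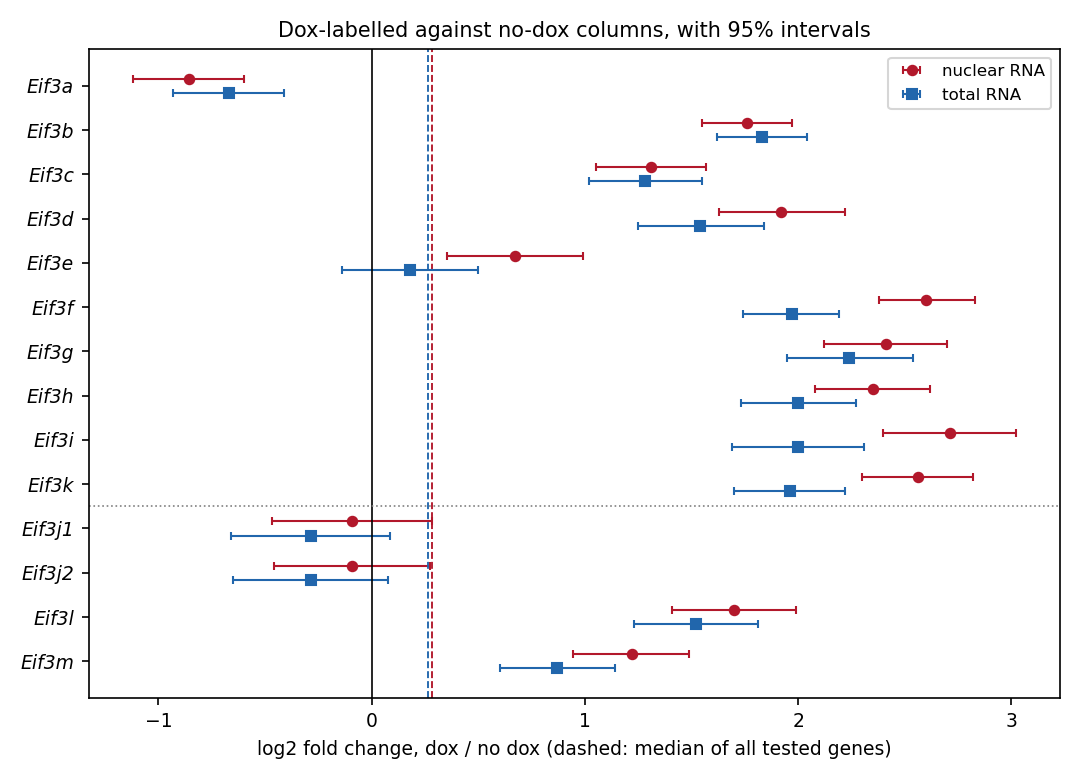
Log2 fold change of the dox-labelled against the no-dox columns for 14 eIF3 genes in nuclear RNA (circles) and total RNA (squares), with 95% intervals from limma and the median of all tested genes dashed. Eif3a alone of the 10 members is below 0 as deposited, while the fold of Eif3e turns below 0 in both fractions after quantile normalization.

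The log2 fold change was higher in nuclear than in total RNA for 8 of the 10 genes, but no difference between the fractions was called. The test of the difference itself (limma, interaction) called 0 of the 10 genes and 0% of all tested genes, with 4 of the 10 and 1338 of all 10197 genes at an unadjusted p below 0.05. Those 4 were Eif3i (log2 0.72, 95% interval 0.28 to 1.15, limma adjusted p = 0.154), Eif3f (log2 0.64, 95% interval 0.32 to 0.95, adjusted p = 0.0957), Eif3k (log2 0.60, 95% interval 0.23 to 0.96, adjusted p = 0.154) and Eif3e (log2 0.49, 95% interval 0.04 to 0.94, adjusted p = 0.338). With only the 4895 genes of at least 5 RPKM tested, Eif3f was called (adjusted p = 0.0464), as were 2.23% of those genes in the higher direction. Eif3b (log2 -0.06, 95% interval -0.36 to 0.23) and Eif3c (log2 0.03, 95% interval -0.34 to 0.40) differed least.

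The fraction comparisons asked which RNAs are more abundant in nuclei than in whole cells. Without dox, 5 of the 10 genes were lower in nuclear than in total RNA, and none was higher, against 34.7% lower and 4.01% higher over all tested genes. Among genes of at least 5 RPKM, as all members are, 49.4% were lower and 3.88% higher, so 5 of 10 lower was near that share. The 5 were Eif3f (1.66-fold, log2 -0.73, SE 0.104, limma adjusted p = 0.000147), Eif3e (1.56-fold, log2 -0.65), Eif3h (1.52-fold, log2 -0.60), Eif3i (1.52-fold, log2 -0.61) and Eif3k (1.51-fold, log2 -0.59). The 5 not called lay between log2 -0.17 for Eif3d and 0.15 for Eif3b. The median of all tested genes was itself -0.31, so relative to it the 5 called genes were lower by 0.28 to 0.42 and Eif3b was higher by 0.46. With each column centred on its median, Eif3f was the one gene still called lower and Eif3a (log2 0.43) and Eif3b (log2 0.47) were called higher, against 15.4% of all tested genes called lower and 11.3% higher.

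With dox, 0 of the 10 genes were called in either direction and 0 had an unadjusted p below 0.05, against 34.8% of all tested genes called lower and 5.84% higher. Among genes of at least 5 RPKM 40.8% were called lower and 6.84% higher. The 10 values ran from log2 -0.25 for Eif3h to 0.21 for Eif3d, with a median of -0.04 against -0.32 over all tested genes. With each column centred on its median, 5 of them were called higher, against 16.4% of all tested genes, among them Eif3d (log2 0.58, limma adjusted p = 0.00704).

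**Figure D3:**
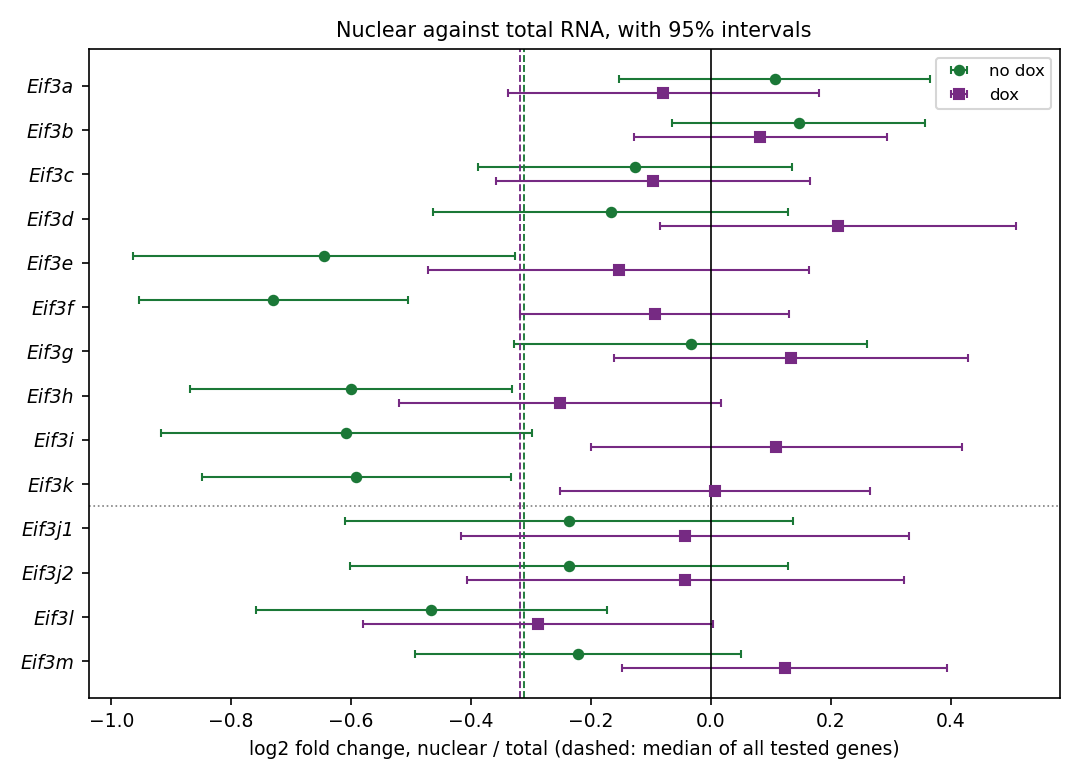
Log2 fold change of nuclear against total RNA for 14 eIF3 genes without dox (circles) and with dox (squares), with 95% intervals from limma and the median of all tested genes dashed at -0.31 and -0.32. Without dox, Eif3e, Eif3f, Eif3h, Eif3i, Eif3k and Eif3l lie apart below 0 as deposited, and with dox all intervals include 0.

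Because RPKM is per gene length, levels could be compared between subunits. Without dox the 10 genes lay within 4.29-fold in nuclear RNA, from 6.99 RPKM for Eif3i to 30.0 RPKM for Eif3a, and within 2.71-fold in total RNA, from 10.7 RPKM for Eif3i to 28.8 RPKM for Eif3c. With dox the range was 8.00-fold in nuclear RNA, from 13.2 RPKM for Eif3e to 106 RPKM for Eif3k, and 7.15-fold in total RNA. The SD of the log2 levels over the 10 genes was 0.71 and 1.04 in nuclear RNA without and with dox, and 0.50 and 1.00 in total RNA. Without Eif3a and Eif3e, which were singled out after their values were seen, the ranges with dox were 2.31-fold and 2.48-fold. For the same 8 genes the ranges without dox were 3.78-fold in nuclear and 2.71-fold in total RNA.

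The order of the levels differed between the dox and no-dox columns more than between fractions. Eif3a was first in nuclear and second in total RNA without dox, and ninth of 10 in both dox columns. In total RNA without dox Eif3c, Eif3a, Eif3k and Eif3f followed each other within 0.05 on the log2 scale at each step, less than their residual SD of 0.135 or below, and so did not differ beyond their spread. In nuclear RNA with dox Eif3f, Eif3g and Eif3b did not differ from their neighbour beyond the spread, and nor did Eif3d and Eif3h, while the step from Eif3i down to Eif3a was 1.47 on the log2 scale. Across the 10 genes the rank correlation of levels was 0.93 between the no-dox fractions and 0.99 between the dox fractions, but 0.33 between dox and no dox in nuclear RNA and 0.44 in total RNA. These describe 10 genes measured in the same libraries.

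Shorter transcripts had larger log2 fold changes, among the eIF3 genes and over all tested genes. The rank correlation of the nuclear log2 fold change with transcript length was -0.66 over the 10 genes and -0.46 over the 10147 tested genes with a length, and in total RNA -0.69 and -0.38. Eif3k has the shortest transcript (909 bases) and Eif3a the longest (5125 bases). The tested genes were split by transcript length into 10 bins of equal size. Among the genes of the same bin, the 8 genes other than Eif3a and Eif3e ranked between percentiles 88.9 and 99.3 by fold change in nuclear RNA and between 85.4 and 98.6 in total RNA. Eif3f stood highest in nuclear RNA, at log2 2.60 where its bin had a median of 0.54. Eif3a was at percentile 30.6, at log2 -0.86 where its bin had a median of -0.32, and Eif3e at 35.1, at 0.67 where its bin had a median of 1.02. The GC content of transcripts also moved with the fold change over all genes (rank correlation 0.49 in nuclear RNA). The part of length and GC content in the dox comparison was tested only by removing their trends. This left 9 members higher and 0 lower in nuclear RNA for exon length alone and for exon length with GC content. For transcript length it left 8 higher and 0 lower. In the same order, 47.0%, 45.2% and 46.5% of all tested genes were called higher, and 15.0% to 18.9% lower.

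**Figure D4:**
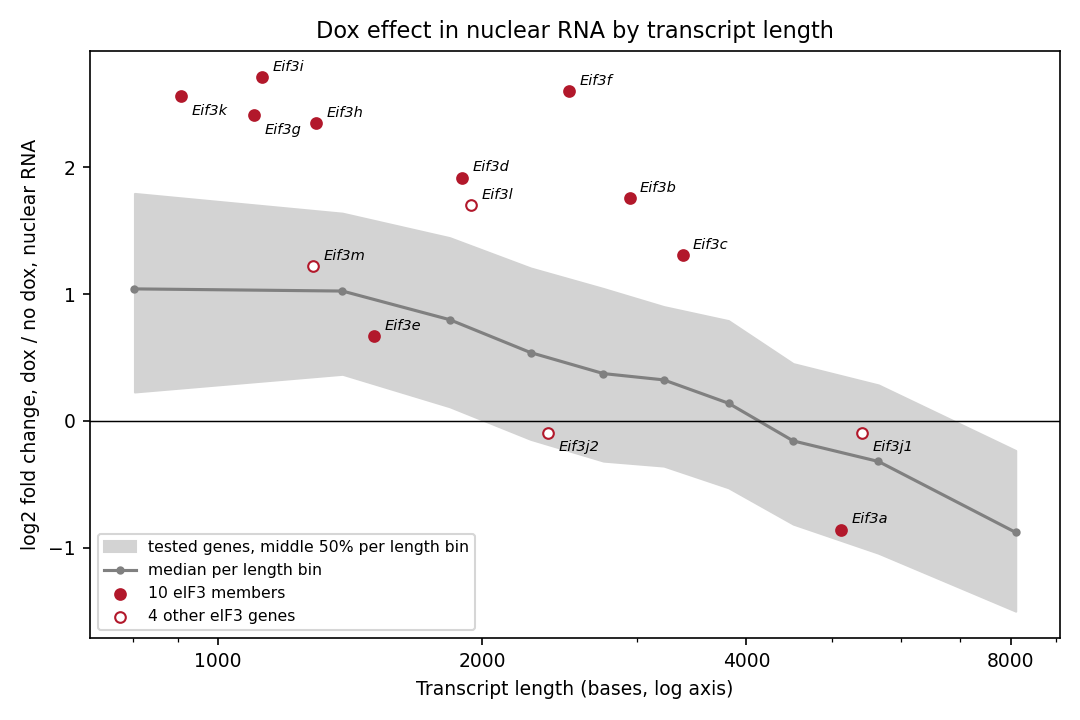
Nuclear log2 fold change, dox against no dox, by transcript length (log axis) for the 10 members (filled) and the 4 other eIF3 genes (open), over the median and middle 50% of tested genes in each of 10 length bins. As deposited, the 8 members other than Eif3a and Eif3e lie above the grey band, and Eif3a and Eif3e lie inside it.

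The other eIF3 genes in the table were Eif3l and Eif3m, both PCI subunits of the ring, and Eif3j1 and Eif3j2, copies of a loosely attached subunit. Eif3l, with 49.5, 15.3, 60.5 and 21.1 RPKM, rose 3.24-fold in nuclear RNA (log2 1.70, SE 0.135, limma adjusted p = 1.66e-07) and 2.87-fold in total RNA. Eif3m, with 19.7, 8.47, 18.1 and 9.88 RPKM, rose 2.32-fold in nuclear RNA (log2 1.22, SE 0.126, limma adjusted p = 1.82e-06) and 1.83-fold in total RNA, where the call ended after quantile normalization (log2 0.21, adjusted p = 0.156). Without dox Eif3l was lower in nuclear than in total RNA (log2 -0.47, limma adjusted p = 0.0152), a call that ended with the columns centred (log2 -0.14, adjusted p = 0.470). Eif3j1, at 1.78 to 2.23 RPKM, was not called in nuclear RNA (log2 -0.09, 95% interval -0.47 to 0.28) or in total RNA (log2 -0.29, 95% interval -0.66 to 0.09), and its reads cannot be told apart from those of Eif3j2. The Eif3j rows had no stable direction. With exon length and GC trends removed Eif3j1 was called higher in nuclear RNA (log2 0.88), and with the columns centred both rows were called lower in total RNA (log2 -0.48). With the exon length trend alone removed, Eif3j2 was called lower in nuclear (log2 -0.48) and total RNA (log2 -0.54).

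Several genes share sequence with other loci, and how the authors counted such reads is not given in the sources used here. Eif3e has 4 processed pseudogenes, the longest covering 91.0% of its transcript, and Eif3h, Eif3i and Eif3m each have 1 copy that covers 81.5% to 87.7%. How many reads such copies took or gave was not tested, so these values are uncertain. Exons of the antisense gene Gm17638 overlap 43.3% of the exon length of Eif3d, and whether the counting used strand is not stated. Eif3a, Eif3b, Eif3g and Eif3k have no such copy, and an overlap with exons of another gene was found for none of these 4.

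The genes closest to the mean pattern of the 10 members over the 4 columns, among 10183 tested genes outside eIF3, were Eftud2, Ttll12, Fdx1, Renbp and Trappc4. Likeness was the root mean square difference of the log2 means, each gene centred on its own mean, and it ran from 0.012 for Eftud2, a GTPase of the spliceosome, to 0.024 for Trappc4. Eftud2 had 32.3, 9.78, 33.2 and 12.1 RPKM. Of the members Eif3d was nearest to the mean pattern (0.121) and Eif3a was farthest (1.19). The genes nearest to Eif3a were Tgs1, Mettl23 and Dek, with differences of 0.025 on the same scale. Dek, a chromatin protein, had 6.28, 11.7, 6.54 and 10.4 RPKM. The measure rests on 4 columns.

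Other translation factors also rose in part, and their counts in nuclear RNA are to be read against the 43.1% of all tested genes called higher and the 26.3% called lower. Elongation factors had the median nearest to that of the eIF3 genes, with 7 of 8 higher and 1 lower in nuclear RNA and a median log2 fold change of 2.17. Eef1d, of the exchange factor for eEF1A, rose 5.70-fold, and Eif5a2, the second eIF5A gene, fell 2.43-fold. In total RNA the count of elongation factors was the same and the median 1.71. Counts in total RNA are to be read against the 41.5% of all tested genes called higher and 22.8% called lower there. The eIF2 list holds eIF2, which carries the initiator tRNA, and its exchange factor eIF2B. It also held Eif2d (called higher in both fractions) and Eif2a (called in neither), which are not subunits of eIF2 or eIF2B. Of the 10 tested genes of this list 8 were higher and 0 lower in nuclear RNA (median 1.05), and 8 were higher in total RNA. Eif2b5, the catalytic subunit of eIF2B, rose most (4.55-fold).

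The eIF4 group binds the cap and unwinds the leader. Its list here was wider and also held Eif4ebp1, Eif4ebp2, Eif4ebp3, Pabpc1, Pabpc4, Paip1, Dhx29 and Ddx3x. This wider list moved both ways: 10 of 17 tested genes (58.8%) were higher and 4 lower in nuclear RNA (median 0.35). Of all tested genes 43.1% were higher and 26.3% lower, and of those of at least 5 RPKM 65.2% and 18.4%. The counts of the lists that follow here are to be read against the same shares. Eif4h rose 3.30-fold and the helicase gene Eif4a2 fell 2.85-fold. Of 7 genes of eIF1, eIF5 and eIF6 5 were higher and 2 lower (median 0.89). Eif6, which keeps the ribosomal subunits apart, rose 5.72-fold, and Eif5b, the GTPase of subunit joining, fell 1.62-fold. Of 4 termination and recycling genes only Etf1, the release factor that reads stop codons, was called (1.84-fold higher). Of 6 genes for eIF2 alpha kinases and phosphatase subunits 2 were higher and 2 lower. Eif2ak1, the heme-regulated kinase, was 1.82-fold higher and Eif2ak2, the kinase that senses double-stranded RNA, was 4.05-fold lower.

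The complexes built from PCI and MPN subunits like the eIF3 ring rose as well. Of 9 COP9 signalosome genes 8 were higher and 1 lower in nuclear RNA (median 1.27). Cops4 rose 4.37-fold and Cops2 fell 1.84-fold. Of 9 tested proteasome lid genes 8 were higher and 0 lower (median 1.31), and Psmd13 rose most (5.56-fold). Both medians were below the 2.14 of the eIF3 genes and above the 0.28 of all tested genes. In total RNA 7 of the 9 COP9 genes and 8 of the 9 lid genes were higher. Of all tested genes 43.1% were called higher in nuclear and 41.5% in total RNA, and of those of at least 5 RPKM 65.2% and 63.2%.

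**Figure D5:**
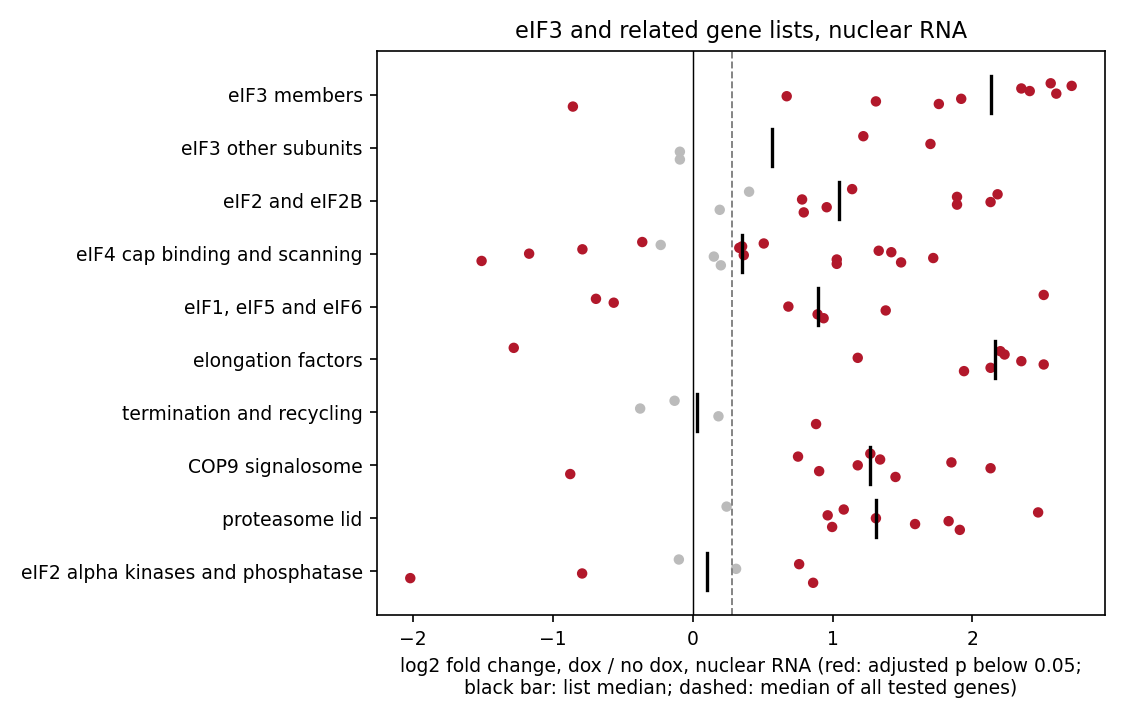
Nuclear log2 fold change, dox against no dox, of each tested gene in the eIF3 and related lists, in red where the limma adjusted p was below 0.05, with list medians as black bars and the median of all tested genes (0.28) dashed. As deposited, the medians of the eIF3 members (2.14) and the elongation factors (2.17) are to the right of the other lists.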

How the data were processed

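Nuclear and total RNA of mouse ESC, with and without dox, was sequenced. Per the submitters' processing notes, bcl2fastq 2.17.1, TopHat and mm10 were used, with no settings given. Per the file headers, Partek 6.6 gave the RPKM values and the ANOVA. The deposited values are group means of log2(RPKM + 0.001) for 19716 genes. The deposited table also holds an ANOVA p-value and a q-value per comparison, a ratio of the group means, and a signed fold change treated as a score. No library's own value was used.

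The planned tests on libraries were replaced. The residual SD of each gene was recovered from the authors' p-values: both p-values of a gene gave 1 SD, to within 0.001 log2, in 99.5% of 17380 genes at 6 residual degrees of freedom, against 3.51% at 5 and 4.73% at 7. This matched 10 libraries in 4 groups. limma 3.58.1 (R 4.3.3) took the group means and these SDs, with a trended prior, for 5 comparisons of the 10197 genes whose mean reached 1 RPKM in any column. Genes were called at a Benjamini-Hochberg adjusted p below 0.05. A deposited mean is geometric, and depth limits it: counting error was estimated as at most 9.05% for a member in 1 library. That estimate takes transcript length as gene length, and the length behind the deposited RPKM may differ. Data were simulated for the nuclear comparison (10197 genes, 200 changed). There 72% of genes changed by log2 1 and 96% of those changed by log2 2 were called, and 3.448% of the calls were unchanged genes. The real nuclear comparison called 7073 genes, far more than the 200, and the simulation held no difference in depth. These shares therefore check the method and do not give the power or false calls of the real comparison.

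Lengths, GC content and copies (blastn 2.17.0, at least 90% identity) came from GENCODE M21 on GRCm38, and promoters from RefSeq on GRCm38.p6. Transcript length and GC content were those of the longest protein-coding transcript, or of the longest transcript where a gene has none. All 10 members and the other eIF3 genes were named, and from each other list the largest called nuclear rise and fall, with the genes nearest in pattern. The members and lists were chosen with earlier results of these data known. Alternatives were other filters, pseudocounts, moderation, scaling (quantile normalization, columns centred on the median) and removal of loess trends on length and GC content. Pseudocounts, scaling and trend removal changed only the group means or their fold changes. The residual SD recovered from the authors' p-values was kept, so p-values in those settings do not hold the spread of rescaled libraries. Comparisons of the same fraction or dox label share columns, so their values are not independent.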

Additional observations from a re-analysis of the deposited data

How the results depend on the processing

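No paired analysis was possible because the table holds only group means. The replicate block and leaving out libraries one by one were for the same reason not run. The trend on transcript length was chosen after the data were seen. Across 10 alternatives, 7 to 9 members were called higher in nuclear RNA (7 after quantile normalization). In total RNA 8 or 9 were called higher, and the ninth was Eif3e. The share of all tested genes called higher ran from 22.03% without a filter to 65.21% at 5 RPKM in nuclear RNA. It was 34.82% there after quantile normalization. For total RNA this share ran from 20.78% without a filter to 63.19% at 5 RPKM. The count of members called lower with dox went from 1 to 0 in both fractions with trends on exon length, on exon length and GC, or on transcript length removed. There 15.0% to 18.9% of all tested genes were called lower in nuclear and 15.17% to 17.65% in total RNA. After quantile normalization the count was 2 in total RNA, against 28.1% of all tested genes. In the difference of the effects 1 member was called higher at 5 RPKM, as were 2.23% of the genes tested there. For nuclear against total RNA without dox, quantile normalization gave 4 members higher and 1 lower, against 18.2% and 17.7% of all tested genes. Centring gave 2 higher and 1 lower, against 11.35% and 15.39%. With dox, centring gave 5 higher, against 16.4%. Removing the exon length or the transcript length trend gave 1 lower with dox, against 29.58% and 29.65% of all tested genes.

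Directions turned for Eif3e after quantile normalization (log2 -0.093 in nuclear, -0.49 in total RNA), and in the same setting for Eif3c (0.39) and Eif3g (0.45) in nuclear against total RNA without dox. With exon length and GC trends removed Eif3a was 0.0762 in nuclear and 0.0806 in total RNA, Eif3j1 0.88 and 0.538, and Eif3j2 0.982 and 0.731, and with the transcript length trend removed Eif3j1 was 0.55 in nuclear RNA. Eif3e moved from 0.67 to 2.07 in nuclear and from 0.18 to 1.42 in total RNA with exon length and GC trends removed. The share of all nuclear calls that were higher was 62.1%, 54.1% after quantile normalization, 54.2% without a filter, 78.0% at 5 RPKM and 75.1% with exon length and GC trends removed; in total RNA it was 64.6%, 55.3%, 57.7%, 78.0% and 74.8%. The all-gene median of nuclear against total RNA without dox moved from -0.31 to 0.04 with quantile normalization. The causes were not tested. Among the 10 libraries whose depth was read, every dox library was shallower than every other, so depth and dox label cannot be told apart.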

Other observations

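Eif3j1, on chromosome 2, and Eif3j2, a single-exon copy on chromosome 18, had the same profile in the deposited table. Their log2 means differed by 0.12 in each of the 4 columns, a constant ratio of 1.0864, and the range of that difference over the columns was 1.7e-05. The Eif3j2 transcript matched Eif3j1 at 99.4% identity over its whole length. Their values are therefore 1 measurement and not 2. As deposited, Eif3j was the eIF3 subunit with the lowest level, at 1.78 to 2.42 RPKM over both rows. How reads shared by the 2 loci were counted is not given in the sources used here, so this level and its rank are uncertain.

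Eif3a, the member that fell with dox, and Eif3e, the one that rose least, had the lowest GC content of the 10 member transcripts, 44.5% for Eif3a and 40.3% for Eif3e, against 49.6% to 55.9% for the other 8. Eif3m, at 44.4%, rose less than Eif3l, at 51.5%, but it rose 2.32-fold in nuclear RNA where Eif3a, of nearly equal GC content, fell 1.81-fold. Eif3b, the highest at 55.9%, rose 3.40-fold in nuclear RNA, less than Eif3f at 49.8% (6.07-fold). The rank correlation of the log2 fold change with GC content over the 10 members was 0.43 for nuclear RNA (0.49 over all tested genes with a value) and 0.55 for total RNA (0.46 over all). This is a description of the same libraries, and the part of GC content in the dox comparison was tested only by removing its trend: with exon length and GC trends removed Eif3a was at log2 0.08 and Eif3e at 2.07 in nuclear RNA.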
